A study of Sus scrofa with 27 samples.

Results

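The metallothionein and zinc transporter genes described here were the rows of the count table named MT1A, MT3, MTF1, SLC30A1, SLC39A8, SLC39A10 and SLC39A14, 7 of 31908 genes. The members were chosen by name, with the large rise of MT1A in the dialysed lungs already known, so the values of MT1A in those lungs are given as a description without a test. All 7 names were in the table and none was dropped for having under 10 counts in every library. The member nearest to that limit was MT3, with at most 28 counts in a library.

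Lungs of Large-White pigs, harvested in a non-heart-beating donor model and kept in cold ischemia, underwent ex vivo lung perfusion (EVLP), in which an isolated lung is ventilated and perfused with Steen solution on a circuit. In the Gold Standard (GS) group, lungs of 5 pigs (9, 17, 44, 55 and 77), part of the perfusate was exchanged at regular intervals, and in the Pediatric Dialysis (PD) group, lungs of 4 pigs (2, 3, 4 and 5), a pediatric hemodialysis membrane ran on the circuit. Perfusate of both groups held methylprednisolone (a glucocorticoid), cefuroxime and heparin. Each lung gave 1 biopsy at 0h, after the cold ischemia, and 1 each at 6h and 12h of EVLP, 27 RNA-seq libraries in all. RNA came from frozen sections or from biopsies in RNAlater with different kits, and which library used which is not given in the sources used here.

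Libraries held 26335584 to 67522703 counts in GS and 14650700 to 21820935 in PD, so depth and group cannot be told apart. Levels are given as CPM, the counts scaled to a common library size after TMM normalisation. The limit that a count of 0 allows, 3 counts, equalled up to 0.104 CPM for GS libraries and up to 0.295 CPM for PD libraries (counting error only). Values are listed in the order of pigs 9, 17, 44, 55 and 77 for GS and 2, 3, 4 and 5 for PD. The 12h library of PD pig 2 stood apart from the rest of its group (correlation of log2 CPM with the mean of its group 0.870, against 0.908 or more in the other libraries of PD), and estimates at 12h in PD for the tested members other than MT1A are given with and without this pig. Lung markers were present throughout, with summed alveolar type 2 markers (6 of 7 in the table) at 5228 CPM or more in every library.

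Metallothioneins are small cysteine-rich proteins that bind zinc and copper, and their genes are induced by zinc, cadmium, glucocorticoids and inflammatory cytokines. MTF1 is the zinc-sensing transcription factor that binds metal response elements in the promoters of metallothionein genes and of SLC30A1. SLC30 proteins (ZnT) move zinc out of the cytosol and SLC39 proteins (ZIP) move it in. SLC30A1 is the zinc exporter of the plasma membrane, SLC39A8 and SLC39A14 are importers of zinc, manganese and iron that are induced in inflammation, and SLC39A10 is a zinc importer of the plasma membrane with a known role in lymphocytes.

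The coding sequences of RefSeq show what the metallothionein rows stand for, and 3 are given 5′ to 3′ with the cysteine codons in capitals (Sscrofa11.1, chromosome 6, plus strand, gene spans chr6:18645125-18646034 for MT-2B, chr6:18672016-18673673 for MT1A and chr6:18634735-18636134 for MT3).
MT-2B coding: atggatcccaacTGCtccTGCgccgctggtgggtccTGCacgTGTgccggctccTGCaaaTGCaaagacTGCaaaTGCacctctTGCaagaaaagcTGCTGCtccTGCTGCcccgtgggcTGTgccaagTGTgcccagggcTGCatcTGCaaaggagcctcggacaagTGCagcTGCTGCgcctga
MT1A coding: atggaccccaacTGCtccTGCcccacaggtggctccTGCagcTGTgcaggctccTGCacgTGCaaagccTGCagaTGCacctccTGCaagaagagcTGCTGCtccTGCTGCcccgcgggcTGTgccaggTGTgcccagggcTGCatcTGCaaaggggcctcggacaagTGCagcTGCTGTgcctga
MT3 coding: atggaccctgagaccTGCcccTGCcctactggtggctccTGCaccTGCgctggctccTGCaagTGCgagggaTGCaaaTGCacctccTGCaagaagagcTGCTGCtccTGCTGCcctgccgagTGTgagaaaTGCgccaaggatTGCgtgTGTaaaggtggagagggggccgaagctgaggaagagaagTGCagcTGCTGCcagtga
MT-2B and MT1A each encode 61 residues, 20 of them cysteine, and share 168 of 186 bases (90.3%). MT3 encodes 68 residues with 20 cysteines. MT1A and its neighbour LOC100739663 share 180 of 186 bases (96.8%), and 57.1% of the 34-base stretches of the MT1A transcript also occur in another metallothionein transcript of the locus, against 1.78% for MT-2B and 2.33% for MT3. Reads of MT1A can therefore fall on a near-identical copy, and the handling of such reads is not given in the sources used here.

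Promoters were searched for the core of the metal response element, written as TGCACNC and TGCGCNC, on both strands with overlaps allowed, in the 250 bases before each RefSeq start. The windows of 3 metallothionein genes and of SLC30A1, the only transporter among the members with a match, are given with matches in capitals (plus strand, Sscrofa11.1, at chr6:18644875-18645124, chr6:18671766-18672015, chr6:18634485-18634734 and chr9:131633336-131633585).
MT-2B promoter: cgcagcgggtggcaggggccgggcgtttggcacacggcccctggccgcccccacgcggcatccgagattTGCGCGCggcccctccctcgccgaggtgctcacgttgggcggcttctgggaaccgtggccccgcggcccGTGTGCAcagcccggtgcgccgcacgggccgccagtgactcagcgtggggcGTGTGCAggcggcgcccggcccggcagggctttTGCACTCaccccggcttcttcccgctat
MT1A promoter: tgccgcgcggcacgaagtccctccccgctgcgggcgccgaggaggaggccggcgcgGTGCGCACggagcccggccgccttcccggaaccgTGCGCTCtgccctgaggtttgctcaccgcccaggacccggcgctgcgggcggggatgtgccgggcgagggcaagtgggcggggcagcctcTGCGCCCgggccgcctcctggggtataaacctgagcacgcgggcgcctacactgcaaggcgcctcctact
MT3 promoter: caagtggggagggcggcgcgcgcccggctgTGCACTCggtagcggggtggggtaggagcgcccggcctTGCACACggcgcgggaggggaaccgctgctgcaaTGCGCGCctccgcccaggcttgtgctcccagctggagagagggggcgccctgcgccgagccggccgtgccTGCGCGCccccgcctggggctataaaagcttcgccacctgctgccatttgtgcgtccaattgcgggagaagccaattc
SLC30A1 promoter: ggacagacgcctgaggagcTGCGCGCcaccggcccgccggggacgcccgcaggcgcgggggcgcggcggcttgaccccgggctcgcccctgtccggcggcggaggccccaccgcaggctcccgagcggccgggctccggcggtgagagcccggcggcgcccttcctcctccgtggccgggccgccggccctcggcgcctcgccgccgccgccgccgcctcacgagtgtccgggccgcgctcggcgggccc
MT-2B, MT1A and MT3 each held 4 matches, of which 2 overlap each other in MT1A, and SLC30A1 held 1. Of the other metallothionein genes of the locus MT1D held 3, LOC102166944 held 2, and LOC100739663 and MT4 held 1 each. Among 19548 pig promoters of the same length 24.3% held at least 1 match and 0.43% held at least 4. No match to these letters lay in the windows of MTF1, SLC39A8, SLC39A10 and SLC39A14. A match is a string of letters and not a bound site.

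The rows of the count table do not follow the RefSeq genes one to one. The row named MT1A (ENSSSCG00000023684, chr6:18660642-18673766, plus strand) covered RefSeq MT1A and also LOC102166944, and enclosed an unnamed row (ENSSSCG00000023305, chr6:18666566-18673673). The unnamed row also covers all of RefSeq MT1A, and how reads of that gene were split between the rows is not given in the sources used here. The row named MT3 (ENSSSCG00000024305, chr6:18634721-18789137) spanned 154 kb and lay over all of these, whereas RefSeq MT3 ends before MT-2B begins. The row named MT1X (ENSSSCG00000030300, chr6:18645059-18646033) lies on RefSeq MT-2B. It held 60241 of the metallothionein counts of this locus (88.8%), MT1A 4140 (6.11%), the unnamed row 2540 (3.75%), MT1D 524 (0.773%), MT3 207 (0.305%) and LOC100739663 159 (0.234%), while the MT4 row had no count in any library.

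**Figure D1:**
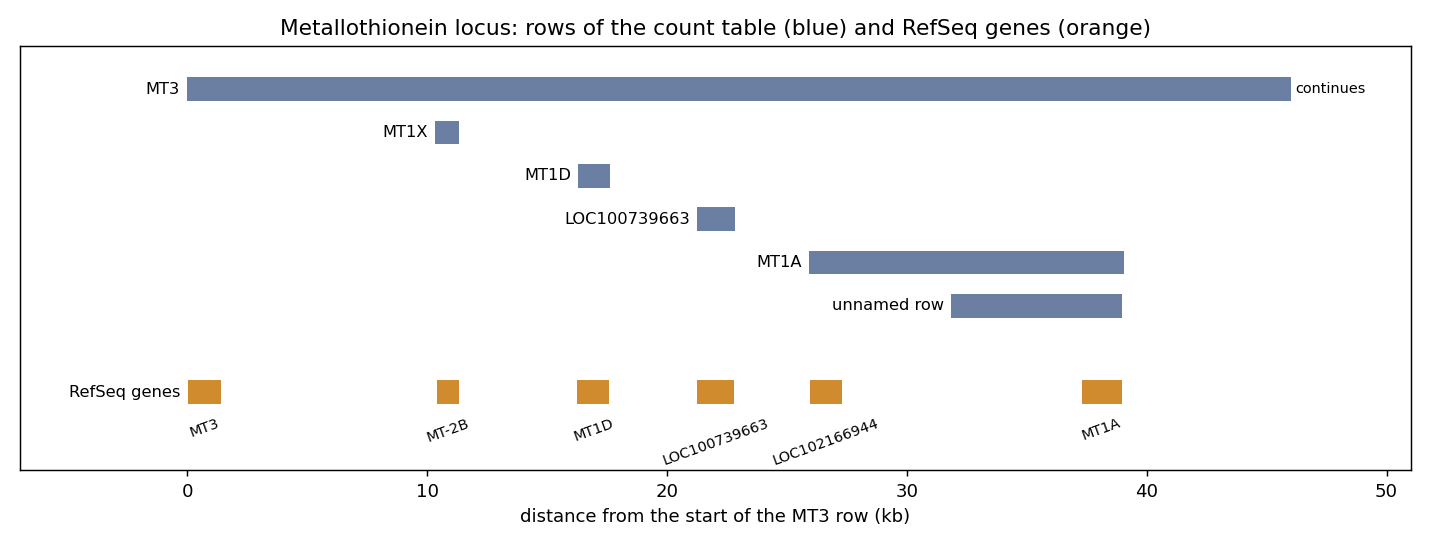
Map of the metallothionein locus, with distance from the start of the MT3 row in kb along the horizontal axis, rows of the count table in blue and RefSeq genes in orange. The MT1A row covers 2 RefSeq genes and contains the unnamed row, and the MT3 row (154 kb, drawn only in part) lies over every other row shown.

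MT1A was close to absent before EVLP and was present in every lung during EVLP. At 0h it had 2, 5, 3, 6 and 3 counts in GS and 13, 4, 2 and 7 in PD. GS lungs then had 71 to 138 MT1A counts at 6h and 55 to 215 at 12h. Every GS lung was higher than at 0h at both times, with no overlap between 0h and either later time.

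In CPM, MT1A in GS was 2.46, 1.87, 2.51, 1.74 and 1.96 CPM at 6h and 1.70, 6.05, 0.886, 2.44 and 0.896 CPM at 12h, from 0.0413 to 0.138 CPM at 0h. Counts pooled over the 5 lungs gave a 30.9-fold higher level at 6h than at 0h (95% exact interval 19.6 to 51.8, counting error only) and a 31.0-fold higher level at 12h (19.6 to 51.9). MT1A rose in GS by 4.99 on the log2 scale at 6h (SE 0.49, adjusted p = 0.000109) and by 4.73 at 12h (SE 0.49, adjusted p = 6.74e-05) by edgeR's quasi-likelihood test with the pig as a block and Benjamini-Hochberg adjustment. The adjusted p over the 13 alternatives ran from 1.03e-19 to 0.00210 at 6h and from 3.67e-18 to 0.00120 at 12h. Comparisons with 0h called a gene that differed 2-fold or more and had an adjusted p below 0.05. Of the 18594 genes tested in GS this called 11.1% at 6h (5.50% higher, 5.56% lower) and 15.7% at 12h (6.99% higher, 8.66% lower). Every GS lung was higher than at 0h for 18.6% of genes at 6h and 20.5% at 12h, and lower for 19.0% and 17.9%.

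MT1A in PD lungs reached 240, 127, 754 and 65 counts at 6h and 614, 255, 542 and 475 at 12h. That was 15.1, 6.54, 48.3 and 2.76 CPM at 6h and 60.4, 13.5, 36.3 and 30.2 CPM at 12h, after 0.700, 0.207, 0.108 and 0.367 CPM at 0h. All 4 lungs were higher than at 0h at both times, as for 11% of all genes at 6h and 12% at 12h (10.7% and 15% were lower in all 4), and between 6h and 12h pigs 2, 3 and 5 were higher still and pig 4 was lower. Pooled over the lungs, MT1A was 46.3 times its level at 0h at 6h (95% exact interval 31.4 to 71.1, counting error only) and 91.6 times at 12h (62.3 to 141). The 6h value rests largely on pig 4, which gave 754 of the 1186 counts pooled. Log2 ratios of single PD lungs at 6h ran from 2.82 to 8.48.

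MT1A levels of GS and PD did not overlap at 6h or 12h, with PD higher. Of all 17884 genes in the fit of all libraries, 19.9% had levels without overlap between the groups at 6h (10.4% with PD higher, 9.56% with PD lower) and 20.7% at 12h (8.66% and 12%). At 0h the MT1A levels overlapped. The log2 ratio to the lung's own 0h biopsy averaged 4.79 ± 0.84 (SD, n = 5) in GS and 5.13 ± 2.39 (SD, n = 4) in PD at 6h. At 12h it averaged 4.598 ± 0.47 in GS and 6.64 ± 0.97 in PD, with every PD lung (5.87 to 8.06) above every GS lung (4.17 to 5.32). Ratios without overlap were found for 2.13% of all genes at 12h (0.900% with PD higher, 1.23% with PD lower), with no member among them beside MT1A. At 6h they were found for 3.08% (1.89% and 1.19%), with no member. The ratios of MT1A rest on 2 to 13 counts at 0h. Its rise in PD was known when the members were chosen, so these shares of all genes are no test of MT1A.

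MT-2B, read from the MT1X row and so counted on far more reads, was likewise higher than at 0h in every lung, with a smaller ratio. It had 2.39, 5.50, 3.43, 3.37 and 2.21 CPM in GS at 0h, 39.0, 39.8, 70.7, 24.97 and 55.6 at 6h and 12.7, 80.2, 24.6, 61.9 and 18.9 at 12h. PD lungs had 10.1, 9.55, 12.1 and 16.5 CPM of MT1X at 0h, 129, 84.2, 420.4 and 41.8 at 6h and 1066, 143, 196 and 636 at 12h. PD was above GS without overlap at 0h and 12h, as for 14.6% and 8.66% of all genes, and at 6h the groups overlapped.

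By edgeR, MT1X rose in GS by 3.89 at 6h (SE 0.43, adjusted p = 0.000208) and by 3.34 at 12h (SE 0.43, adjusted p = 0.000182), higher in 5 of 5 lungs. In PD the MT1X estimate was 3.51 at 6h (SE 0.78, adjusted p = 0.122), higher in 4 of 4 lungs but not past the threshold. That result was the same in 8 of 12 alternatives, and the others called the rise (adjusted p 4.23e-05 to 0.740). At 12h MT1X rose in PD by 5.22 (SE 0.83, adjusted p = 0.0170). Leaving out pig 2 gave 4.53 at 12h for MT1X (adjusted p = 0.0117, range over 12 alternatives 5.27e-12 to 0.246), and the call was lost without pig 3 or pig 5 and with only the 2 times compared (4.94, adjusted p = 0.106). The share of the locus counts that fell on MT1A was 0.840% to 6.19% at 0h, 3.13% to 10.02% at 6h and 3.23% to 14.8% at 12h over the libraries of both groups.

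**Figure D2:**
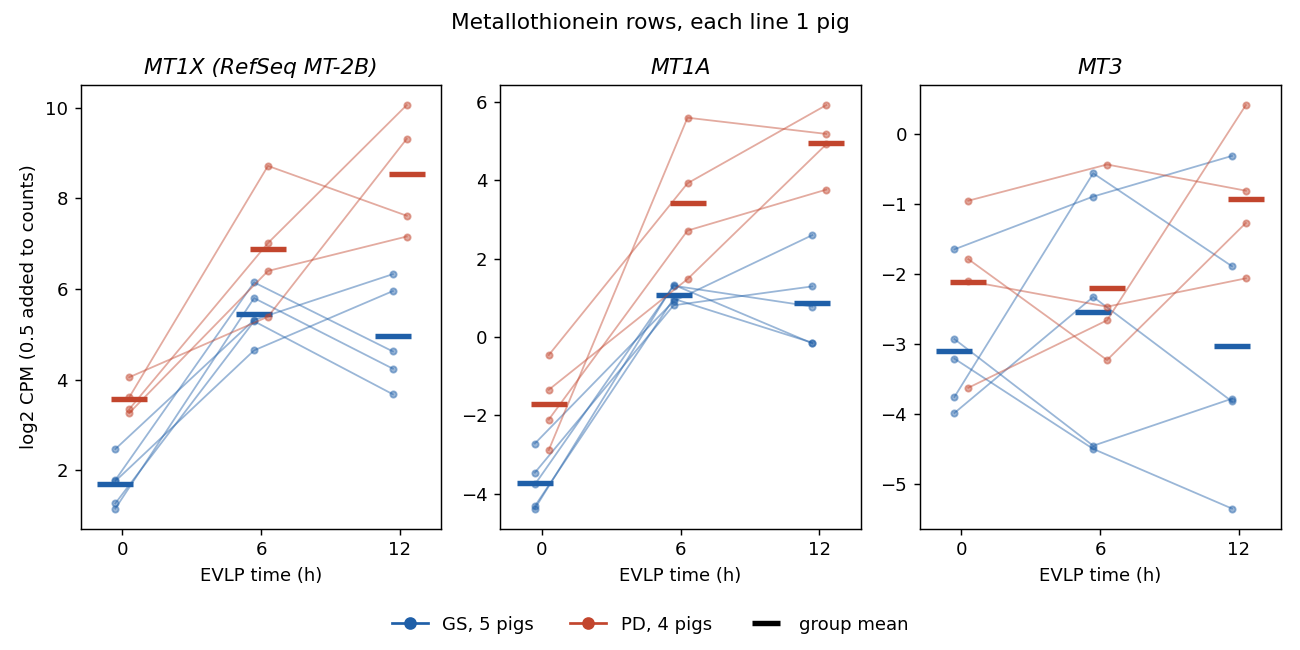
Log2 CPM of MT1X (RefSeq MT-2B), MT1A and MT3 at 0h, 6h and 12h of EVLP, with 1 line per pig (GS blue, 5 pigs; PD red, 4 pigs) and bars at group means. MT1X and MT1A are higher than at 0h in all 9 lungs, while the MT3 lines cross within 1 to 28 counts.

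MT3, the metallothionein first found in brain, had few counts, 1 to 28 in a library. GS lungs had 2, 11, 9, 4 and 7 MT3 counts at 0h, 19, 27, 2, 11 and 2 at 6h and 9, 28, 4, 3 and 1 at 12h. PD lungs had 1, 4, 9 and 5, then 2, 3, 11 and 2, then 13, 4, 8 and 6. Times and groups overlapped, 3 of 5 GS lungs were higher than at 0h at each time, as were 2 of 4 PD lungs at 6h and 4 of 4 at 12h. Pooled MT3 counts gave ratios to 0h of 2.10 (95% exact interval 1.35 to 3.31, counting error only) and 1.59 (0.990 to 2.57) in GS. In PD the pooled ratios were 0.961 (0.475 to 1.93) at 6h and 2.06 (1.13 to 3.86) at 12h. The 12h ratio in PD rests largely on pig 2, whose library stood apart, with 1 count at 0h and 13 of the 31 pooled at 12h. Pigs 3, 4 and 5 had 4, 9 and 5 MT3 counts at 0h and 4, 8 and 6 at 12h. The interval above 1 therefore does not show a rise beyond pig 2. The MT3 change in PD minus that in GS was 1.16 at 12h, and 0.17 without PD pig 2 (edgeR). The log2 ratios of single lungs ran from −1.52 to 3.20 in GS at 6h and from 0.04 to 4.04 in PD at 12h, and edgeR in GS estimated a 6h difference of 0.63 (SE 0.67, adjusted p = 0.509) and a 12h difference of 0.08 (SE 0.73, adjusted p = 0.942, turning to −0.05 in DESeq2). MT3 did not pass the filter on low counts in the PD fit. The row lies over the metallothionein genes from MT1X to MT1A.

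MTF1 (ENSSSCG00000037516, chr6:93839174-93884405, minus strand), the zinc sensor itself, did not pass the test in GS. It had 24.2, 16.99, 26.1, 21.7 and 23.3 CPM at 0h, 35.3, 24.5, 21.9, 20.8 and 24.7 at 6h and 33.2, 27.1, 22.8, 25.9 and 17.9 at 12h. The MTF1 estimate in GS by edgeR, against 0h, came to 0.12 at 6h (SE 0.16, adjusted p = 0.593), then 0.08 at 12h (SE 0.16, adjusted p = 0.7099), with 3 of 5 lungs higher at each time. Leaving out pig 17 turned the 12h value to −0.04.

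In PD, MTF1 started from a level several times lower. PD lungs had 5.33, 5.01, 2.44 and 3.52 CPM of MTF1 at 0h, 3.97, 8.30, 9.80 and 8.51 at 6h and 7.37, 16.2, 11.8 and 9.65 at 12h. Every PD library lay under every GS library of its time, at 0h, 6h and 12h. The same held for 17.7%, 9.56% and 12% of all genes at these times. At 0h PD was lower by 2.38 on the log2 scale (SE 0.27, adjusted p = 5.24e-05, edgeR, 9 lungs), a comparison in which 40.6% of 16477 genes tested had an adjusted p under 0.05 (no fold limit was used at 0h) and 19.3% were lower. The difference kept its sign and its call in all 14 alternatives (−2.53 to −2.21, adjusted p 2.69e-18 to 0.000417).

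The gap was present before dialysis began. At 0h the summed alveolar type 2 markers were 26099 to 73894 CPM in PD and 6893 to 9796 in GS, red cell markers (2 of 3 in the table) 50.6 to 223 and 0.354 to 10.5, and neutrophil markers (5 of 6) 617 to 1176 and 148 to 393. Endothelial markers (5 of 5) were 1111 to 1517 CPM in PD and 1648 to 2325 in GS, and macrophage markers (5 of 5) 1542 to 1707 and 1833 to 3386, both lower in PD without overlap. Single markers did not all follow their list, and of the type 2 and the neutrophil markers 2 each were called higher and 1 each lower in PD. None of the type 2 or red cell markers in the table was under the detection limit in every library, and 1 neutrophil marker was in PD. The part of cell makeup, RNA extraction and depth in the gap was not tested, and in bulk tissue fewer cells of a type and less RNA per cell cannot be told apart.

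MTF1 in PD was higher than at 0h in 3 of 4 lungs at 6h and in 4 of 4 at 12h. The edgeR estimate was 0.86 at 6h (SE 0.41, adjusted p = 0.554), then 1.43 at 12h (SE 0.41, adjusted p = 0.0646), neither past the threshold. Without pig 2 MTF1 rose by 1.75 at 12h (adjusted p = 0.0152), and over the 12 alternatives the adjusted p ran from 0.00272 to 0.357. The change in PD minus that in GS was 1.31 at 12h (SE 0.40, unadjusted p = 0.00356, adjusted p = 0.677, edgeR), and the lungs' ratios overlapped (GS −0.38 to 0.68, PD 0.47 to 2.26). Without pig 2 this difference of changes was 1.66 (adjusted p = 0.0496 in a fit that called 153 of 18568 genes, range over 15 alternatives 0.0496 to 1).

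SLC30A1 (ENSSSCG00000039472, chr9:131633585-131640675, plus strand), the exporter whose gene is a target of MTF1, was higher in every lung during EVLP. GS lungs had 44.4, 30.1, 30.6, 27.3 and 21.9 CPM at 0h, 66.2, 51.8, 46.3, 55.4 and 66.9 at 6h and 62.6, 78.1, 79.6, 67.8 and 61.6 at 12h. The lowest GS lung at either later time was above the highest at 0h. By edgeR SLC30A1 rose in GS by 1.14 at 12h (SE 0.17, adjusted p = 0.000425). Its 6h difference of 0.88 (SE 0.17, adjusted p = 0.00269) was under the 2-fold limit, and past it without pig 9 (1.01, adjusted p = 0.00230).

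PD lungs had 61.9, 41.9, 30.6 and 31.3 CPM of SLC30A1 at 0h, 186, 49.6, 100.5 and 69.1 at 6h and 79.8, 71.1, 152 and 111 at 12h. All 4 were higher than their own 0h biopsy at both times, and pig 2 was highest at 6h and near its 0h level at 12h. The edgeR estimate was 1.151 at 6h (SE 0.39, adjusted p = 0.375), then 1.36 at 12h (SE 0.40, adjusted p = 0.0655), not past the threshold. Leaving out pig 2 gave 1.56 at 12h with adjusted p = 0.0156 (range over 12 alternatives 0.00382 to 0.415). The change of SLC30A1 in PD minus that in GS was 0.25 at 6h (SE 0.40) and 0.19 at 12h (SE 0.40, adjusted p = 0.968, −0.11 without PD pig 4), and 0h levels overlapped.

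SLC39A8 (ZIP8, ENSSSCG00000009169, chr8:118605293-118684039, plus strand) differed between the groups already at 0h. GS lungs had 38.3, 21.5, 46.7, 25.96 and 35.6 CPM at 0h and PD lungs 49.7, 65.0, 67.1 and 50.6, without overlap, as for 32.3% of all genes (14.6% with PD higher, 17.7% with PD lower). PD was higher by 0.88 (SE 0.24, adjusted p = 0.0124, edgeR), and in a fit of all libraries without the pig block the difference of 0.84 had adjusted p = 0.0525 (range over 14 alternatives 0.00358 to 0.0525).

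During EVLP, SLC39A8 in GS was 86.6, 44.9, 38.7, 46.6 and 58.9 CPM at 6h and 76.8, 49.8, 31.1, 43.3 and 31.8 at 12h. It was higher than at 0h in 4 of 5 GS lungs at 6h (0.63, SE 0.23, adjusted p = 0.0574, edgeR) and in 3 of 5 at 12h (0.35, SE 0.23, adjusted p = 0.253). In PD, SLC39A8 was 68.5, 56.7, 131 and 77.3 CPM at 6h and 58.9, 153, 183 and 167 at 12h. At 12h the PD estimate was 1.20 (SE 0.34, adjusted p = 0.0603), with 4 of 4 lungs higher but pig 2 far under the others, and 1.42 (adjusted p = 0.0148, range over 12 alternatives 0.00453 to 0.421) without pig 2.

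SLC39A14 (ZIP14, ENSSSCG00000032622, chr14:6639206-6803670, plus strand) overlapped between the groups at 0h (difference −0.10, adjusted p = 0.706, edgeR), with 60.1, 47.5, 62.5, 49.2 and 62.4 CPM in GS and 57.4, 59.1, 37.7 and 44.5 in PD. GS lungs had 113, 90.8, 85.1, 50.3 and 64.1 CPM of SLC39A14 at 6h and 125, 107, 81.1, 82.6 and 66.6 at 12h, higher than at 0h in 5 of 5 at both times. Neither estimate, 0.43 at 6h (SE 0.17, adjusted p = 0.0707) or 0.60 at 12h (SE 0.17, adjusted p = 0.0129, edgeR), reached the 2-fold limit. PD lungs had 77.1, 49.8, 161 and 44.99 CPM at 6h and 45.2, 175, 254 and 144 at 12h, so that pigs 3, 4 and 5 were well above 0h at 12h and pig 2 was lower than at 0h. The PD estimate at 12h was 1.46 (SE 0.48, adjusted p = 0.0921), and 1.88 without pig 2 (adjusted p = 0.0157, range over 12 alternatives 0.00801 to 0.433).

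SLC39A10 (ZIP10, ENSSSCG00000031954, chr15:99584839-99726404, plus strand) was the only member that fell in GS. GS lungs had 26.3, 39.1, 23.5, 19.4 and 22.6 CPM at 0h, 18.2, 25.1, 5.97, 11.5 and 7.88 at 6h and 27.8, 17.3, 6.44, 7.46 and 8.13 at 12h. All 5 were lower at 6h and 4 of 5 at 12h, pig 9 being the exception. By edgeR SLC39A10 fell by 1.14 at 6h (SE 0.25, adjusted p = 0.00594) and by 1.26 at 12h (SE 0.25, adjusted p = 0.00242).

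The call of SLC39A10 was lost in both of the other designs. Without the pig block the difference was −0.96 at 6h (adjusted p = 0.198) and −1.03 at 12h (adjusted p = 0.130), neither past the threshold, and in a fit of all libraries that kept the block it was −1.13 (adjusted p = 0.157) and −1.22 (adjusted p = 0.0943). Over the 13 alternatives the adjusted p ran from 0.000206 to 0.198 at 6h and from 3.42e-05 to 0.130 at 12h. Without pig 44 the 6h difference was −0.90 (adjusted p = 0.0393), under the 2-fold limit. Summed T cell markers (4 of 4 in the table) were 163 to 268 CPM in GS at 0h, 89.0 to 205 at 6h and 70.3 to 168 at 12h. Of these markers 3 of 4 at 6h and 4 of 4 at 12h were lower with an adjusted p below 0.05 (median −0.66 and −0.78, edgeR). CD2 at 12h passed the 2-fold limit. With no fold limit 5295 of 18594 genes had an adjusted p below 0.05 at 6h and 7136 at 12h, in either direction. The part of the T cell markers in the fall of SLC39A10 was not tested.

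PD lungs showed no common direction for SLC39A10. They had 47.6, 53.3, 6.99 and 20.5 CPM at 0h, 45.6, 26.6, 27.3 and 34.2 at 6h and 1.97, 21.96, 22.5 and 12.6 at 12h. Pig 4 was 3.89 and 3.22 times its 0h level at 6h and 12h, and pigs 2, 3 and 5 were lower at 12h, pig 2 with only 20 counts. The edgeR estimate was 0.21 at 6h (SE 0.70, adjusted p = 0.916), then −0.98 at 12h (SE 0.75, adjusted p = 0.459), or −0.27 at 12h without pig 2 (adjusted p = 0.731). PD was above GS without overlap at 6h, as for 10.4% of all genes. The difference of changes at 6h was 1.32 (SE 0.73, adjusted p = 0.783, edgeR).

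**Figure D3:**
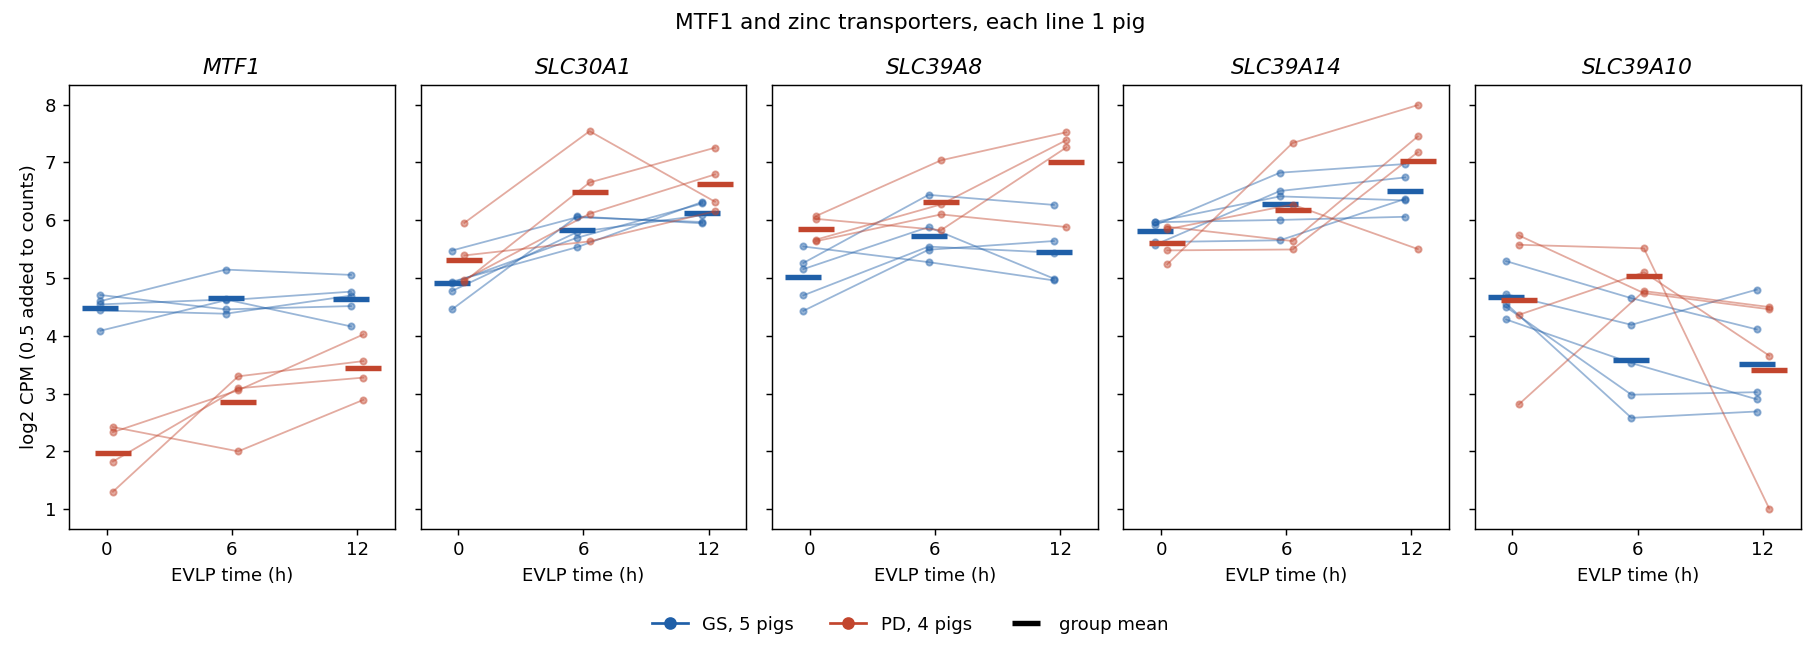
Log2 CPM of MTF1, SLC30A1, SLC39A8, SLC39A14 and SLC39A10 at 0h, 6h and 12h of EVLP, with 1 line per pig (GS blue, 5 pigs; PD red, 4 pigs) and bars at group means. MTF1 is lower in PD than in GS at every time, SLC30A1 is higher than at 0h in all 9 lungs, and SLC39A10 falls in GS while the PD line of pig 2 drops to 1.97 CPM at 12h.

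In each group the 6h and 12h comparisons share the 0h libraries. Counted over the members, edgeR called MT1A higher and SLC39A10 lower in GS at 6h, and MT1A and SLC30A1 higher and SLC39A10 lower at 12h, of 7 tested, where 11.1% and 15.7% of all genes were called. In PD none of the 5 members tested beside MT1A was called at either time, where the share over all 15545 genes was 0.142% at 6h (0.135% higher, 0.00643% lower) and 5.98% at 12h (3.22% higher, 2.76% lower). Without pig 2, MTF1, SLC30A1, SLC39A8 and SLC39A14 were called in PD at 12h, in a fit that called 3826 of 15703 genes. With all 4 pigs the same 4 members were called at 12h with all libraries in one fit (3300 of 17884 genes) and by DESeq2 (2560 of 15545), and MTF1, SLC39A8 and SLC39A14 without the pig block (1460 of 15545). SLC30A1 was also called at 6h with all libraries in one fit (adjusted p = 0.0452, edgeR). The median difference of the members from 0h was 0.63 and 0.35 in GS at 6h and 12h and 0.70 and 1.39 in PD (MT1A included), beside −0.05, −0.08, −0.02 and −0.05 over all genes tested. The PD medians hold MT1A, whose rise there was known when the members were chosen, so they are a description only.

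Between 12h and 6h no member was called in GS and, MT1A left aside, none in PD. None of the 18594 genes tested in GS or 15545 in PD was called. At an unadjusted p under 0.05 edgeR had 882 genes in GS and 1562 in PD. SLC39A8 in PD (0.75, SE 0.34, unadjusted p = 0.0481, adjusted p = 0.494) was the single member, with MT1A in PD left aside. DESeq2 called 2 and 224 genes, none of them in the zinc list (MT1A in PD not counted). MT1A in PD, described without a test, was 1.32 higher on the log2 scale at 12h than at 6h. The test of the difference between the groups' changes called no gene at 6h or 12h of 17884, with 1046 and 1069 at an unadjusted p under 0.05. DESeq2 called 7 and 15, with no member among them when MT1A is left aside. Without PD pig 2 edgeR called 254 and 153 of 18568 genes, among them MTF1 at 12h. Leaving aside MT1A, which is described in PD without a test, MTF1 at 12h was the only member with an unadjusted p under 0.05.

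Around the members, 29 of the 39 genes of a zinc list (metallothioneins, MTF1, SLC30 and SLC39 transporters and TMEM163) were in the table, and 26 were in the fit of GS and 23 in that of PD, MT1A included. In GS 3 were called higher and 1 lower at 6h (5.50% and 5.56% of all genes), and 6 higher and 1 lower at 12h (6.99% and 8.66%). In PD, beside MT1A, none was called at 6h and 3 were called higher at 12h (MT1D, MT1X and SLC39A7, where 3.22% of all genes were), and none was lower. Their median difference from 0h was 0.17 and 0.18 in GS and 0.38 and 0.77 in PD.

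MT1D rose in GS at 6h (2.33, SE 0.58, adjusted p = 0.0111, edgeR, but 2.47 and adjusted p = 0.112 without the pig block) and at 12h (2.56, SE 0.58, adjusted p = 0.00443), and in PD at 12h (5.13, SE 0.97, adjusted p = 0.0207, and 4.46 with adjusted p = 0.0228 without pig 2, but lost without pig 3 or 5). Its reads are few, 0 to 4 counts at 0h. The unnamed row inside MT1A rose in GS by 4.08 at 6h and 3.44 at 12h. Because it covers the same gene as MT1A, its values in PD are given as a description without a test. They were 4.399 at 6h and 5.39 at 12h on the log2 scale, or 4.65 at 12h without pig 2.

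Of the exporters, SLC30A5, which loads zinc into the early secretory pathway, rose in GS at 12h by 1.05 (SE 0.11, adjusted p = 6.74e-05, edgeR), and without pig 44 its difference was 0.97, under the 2-fold limit. In PD the SLC30A5 estimate at 12h was 1.28 (SE 0.53, adjusted p = 0.165), and 1.69 without pig 2 (adjusted p = 0.0155, range over 12 alternatives 0.0155 to 0.600). SLC30A1 and SLC30A5 were the only 2 of 8 SLC30 genes tested that were called in GS, both at 12h, where 15.7% of all genes were called (11.1% at 6h). None of 8 was called in PD, where the shares over all genes were 0.142% at 6h and 5.98% at 12h. At 12h in PD SLC30A1 and SLC30A5 were called without pig 2 and with all libraries in one fit, and SLC30A1 also by DESeq2.

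Among the importers, SLC39A1, a plasma membrane zinc importer, rose in GS at 12h by 1.08 (SE 0.13, adjusted p = 0.000122, edgeR). SLC39A7, which releases zinc from the endoplasmic reticulum, rose in PD at 12h by 1.28 (SE 0.34, adjusted p = 0.0488), a call that was kept without pig 2 (1.26, adjusted p = 0.0222) and lost without pig 3, 4 or 5, with no filter on low counts and with only the 2 times compared (range of adjusted p over 12 alternatives 0.00105 to 0.304). In GS the SLC39A7 difference of 0.95 at 12h (SE 0.12, adjusted p = 0.000149) was just under the 2-fold limit, and over 13 alternatives it ran from 0.88 to 1.04, on either side of it. SLC39A10 was the only SLC39 gene of 12 tested in GS that was called lower, where 5.56% of all genes were lower at 6h and 8.66% at 12h.

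**Figure D4:**
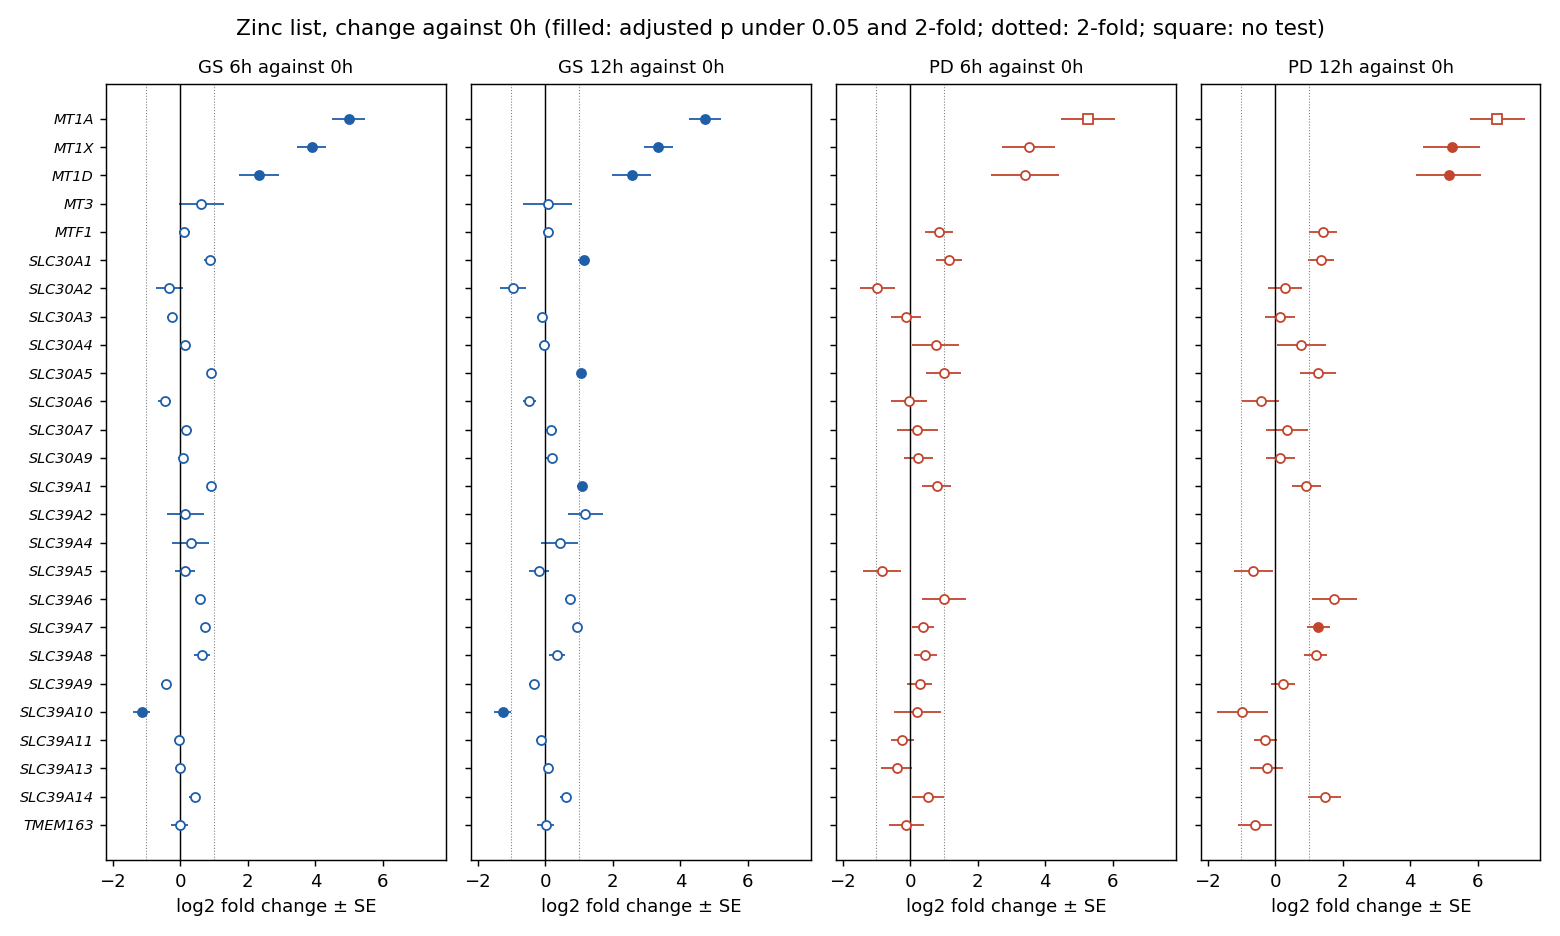
Log2 fold change against 0h with its standard error for the zinc list genes in the fits (26 in GS, blue; 23 in PD, red) at 6h and 12h, with filled points for genes called by edgeR (adjusted p below 0.05, beyond the dotted 2-fold lines) and a square for MT1A in PD, which was not tested. MT1A, MT1X and MT1D lie far to the right of the other genes in all 4 panels, and SLC39A10 is the only filled point to the left of 0.

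At 0h, before EVLP, 9 of 22 zinc list genes tested differed between the groups, 8 higher in PD and MTF1 lower, where 21.3% of all genes were higher and 19.3% lower. MT1X was higher in PD by 1.92 (SE 0.32, adjusted p = 0.000579, edgeR), SLC30A6 by 1.69 (SE 0.23, adjusted p = 0.000184) and SLC30A2 by 1.32 (SE 0.38, adjusted p = 0.0158). SLC39A11 (0.96), SLC39A8 (0.88), SLC30A9 (0.86), SLC39A13 (0.85) and SLC30A7 (0.80) were higher by less than 2-fold. The calls of SLC30A7, SLC30A9, SLC39A8 and SLC39A13 were lost in a fit of all libraries without the pig block. That of SLC30A7 was also lost without GS pig 44, 55 or 77 or PD pig 2 or 3 (adjusted p up to 0.0825), and that of SLC39A13 without PD pig 5 (adjusted p = 0.0546).

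Levels between genes were compared per kb of RefSeq exons, since the exon lengths of the rows are not given in the sources used here, and only for the MT1X, MTF1 and SLC39A10 rows, whose ends lie within 2 kb of the RefSeq gene. The rows of SLC30A1, SLC39A8 and SLC39A14 run further past their RefSeq genes, and those of MT1A and MT3 cover more than 1 gene. In GS at 0h MT-2B had 7.92 ± 3.07 CPM per kb (SD, n = 5), MTF1 3.98 ± 0.61 and SLC39A10 3.61 ± 1.05. The MTF1 row starts at chr6:93839174 and its RefSeq gene at chr6:93837195, so its divisor holds bases outside the row. The MTF1 value can therefore be too low. The SLC39A10 row ends past its RefSeq gene. The order of these genes is not settled by the values. In PD at 12h MT-2B had 1195 ± 1010 CPM per kb (SD, n = 4), from 28.3 ± 7.41 at 0h. Single PD lungs at 12h ran from 334 to 2496 CPM per kb, and the highest was pig 2, whose library stood apart and raised the mean.

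As the genes most like each member over the 27 libraries (Pearson correlation of log2 CPM, 13919 genes with a symbol, across libraries that share pigs and differ in depth), MT1A had MT1X (0.966) and TOMM20 (0.920). MT3 had TACO1 (0.856), AURKC (0.761) and AMMECR1 (0.746), and MTF1 had SUPT6H (0.964), PRKCA (0.959) and TXLNG (0.959). SLC30A1 had RNF139 (0.946), RLIM (0.932) and EIF5 (0.925). SLC39A8 had NIP7 (0.885), BMS1 (0.882) and SNORA61 (0.878), SLC39A10 had CASP8AP2 (0.968), PPIP5K2 (0.966) and PCNX4 (0.950), and SLC39A14 had METAP1 (0.941), SLC36A4 (0.930) and CSNK2A2 (0.927). The values pool both groups, between which MTF1 and SLC39A8 differed at 0h. Within the GS libraries alone they were 0.585, 0.788 and 0.659 for the MTF1 genes in the order given and 0.623, 0.771 and 0.805 for those of SLC39A8.

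Genes of other metals were counted in lists of copper (11 genes in the table) and iron (20). In GS 1 copper gene was called lower at each time, where 5.56% of all genes were lower at 6h and 8.66% at 12h. For iron, 1 gene was called lower in GS at 6h, and 1 lower and 2 higher at 12h (6.99% of all genes were higher). In PD the only call was 1 iron gene lower at 12h, of 19 tested, where 2.76% of all genes were lower. Of the copper genes STEAP4, a metalloreductase, was called in GS, where it fell by 2.11 at 6h (SE 0.30, adjusted p = 0.000627, edgeR) and by 1.37 at 12h (SE 0.29, adjusted p = 0.00315), calls kept in all 13 alternatives, and no copper gene was called in PD. Of the iron genes SLC40A1, the iron exporter ferroportin, fell in GS by 1.45 at 6h (adjusted p = 0.0136) and by 1.13 at 12h (adjusted p = 0.0383) and in PD by 2.65 at 12h (SE 0.67, adjusted p = 0.0425). The call of SLC40A1 in PD was lost without pig 3 or 5 and with only the 2 times compared (adjusted p up to 0.302). In GS it was kept in 9 of 13 alternatives at 6h and in 5 of 13 at 12h (adjusted p up to 0.0767 and 0.160), with pig 17 or 44 left out among those that lost it at both times and pig 55 or 77 at 12h. HAMP, which encodes hepcidin, the hormone that removes ferroportin, rose in GS at 12h by 1.72 (SE 0.48, adjusted p = 0.0130), and CP, the ferroxidase ceruloplasmin, by 1.25 (SE 0.34, adjusted p = 0.0116). Both calls were lost without pig 44, without the pig block and with all libraries in one fit, and that of HAMP also without pig 55 or 77 (adjusted p up to 0.131 for HAMP and 0.0987 for CP). At 0h 4 of 11 copper genes were higher in PD and 1 lower, and 2 of 20 iron genes were higher and 1 lower, where 21.3% of all genes were higher and 19.3% lower.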

How the data were processed

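Lung RNA from 27 biopsies (5 GS and 4 PD pigs at 0h, 6h and 12h) was sequenced from TruSeq stranded libraries. The authors deposited 1 table of raw read counts per gene for 31908 genes. The submitters' processing notes name bcl2fastq 2.2.18.12, cutadapt 1.15, TopHat2 2.0.14, featureCounts, Subread 1.6.0 and DESeq2 1.18.1, with Ensembl release 101 of Sscrofa11.1 as annotation. The strand setting of the counting and its handling of reads with several matches are not given in the sources used here. Symbols came from the table for 16719 genes and through the NCBI number for 985.

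Counts were tested in R 4.3.3 with edgeR 4.0.16 (filterByExpr, TMM, quasi-likelihood test, Benjamini-Hochberg adjustment over all genes tested) and limma 3.58.1. Each group was fitted over its 3 times with the pig as a block, the difference of changes over all 27 libraries with the same block, and PD against GS on the 0h libraries alone. Log2 CPM used a pseudocount of 0.5. Sequences and motif matches were read from the RefSeq annotation of Sscrofa11.1 with Python 3.11.15, scipy 1.17.1 and matplotlib 3.10.9. Intervals are 95% and cover counting error only.

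Same-numbered libraries are biopsies of the same animal. Their deviations from the group means correlated with a mean of 0.513 in GS (0.344 to 0.730, against −0.116 between pigs) and 0.112 in PD (−0.265 to 0.462, against −0.0337). No pair of libraries agreed within sampling noise (smallest chi-square per degree of freedom 29.9). With the pig as a block, p-values of the time comparisons and of the difference of changes rest on how changes vary between pigs. For PD against GS at 0h they rest on the spread of levels between pigs. Fits without the pig block treat the biopsies of 1 lung as independent.

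The members and lists were chosen with earlier results of these data known. Named were all members, every called gene of the zinc list, the 3 genes most like each member (1 of those for MT1A is not reported here), and for copper and iron the called gene with the largest change in each direction per comparison with 0h; CP was named after its values were seen. Alternatives were DESeq2 1.42.0, its size factors in edgeR, no filter, no fold threshold, no pig block, all libraries in one fit, only the times compared, an exact Wilcoxon rank-sum test for the difference of changes, and leaving out each pig. The fits were tested on simulated data: for PD at 12h against 0h (15545 genes), 33.7% of genes changed by 2 on the log2 scale and 84.3% of those changed by 3 were recovered, and for GS at 12h (18594 genes) 93.3% and 96.8%. The PD simulation changed 92 genes by 2 and 108 by 3, where 930 were called in the data. It held no differences between pigs, and recovery meant an adjusted p below 0.05 with no fold limit.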

Additional observations from a re-analysis of the deposited data

Results flagged for a closer look

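Of 42 checks of a member within a group and time, 1 found a library far from the others: SLC39A8 in PD at 12h, where pig 2 had a log2 CPM of 5.88 and the other 3 pigs had 7.26 to 7.52. Chance flags about 1 in 20 groups. The same library stood apart from its group over all genes, and SLC39A8 in PD at 12h is given above with and without it.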

How the results depend on the processing

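No called result of the members or the zinc list changed sign. Differences near 0 that were not called did, among them MTF1 in GS at 12h (−0.04 to 0.21), MT3 in GS at 12h (−0.13 to 0.78) and the difference of changes of SLC30A1 at 12h (−0.11 to 0.47). HAMP at 0h (0.09, PD against GS) ran from −2.62 (adjusted p = 0.0275, edgeR, without PD pig 4) to 0.50 (without PD pig 3). Numbers of zinc list genes called changed with the processing, and the cause was not tested. In GS at 6h 4 were called, 10 with no fold threshold (5295 of all genes against 2057) and 2 without the pig block (1123). In PD, MT1A, described there without a test, is left out of the counts. At 6h 0 were called, 3 with all libraries in one fit, 2 by DESeq2, and 1 both without the pig block and with only the times compared (479, 428, 100 and 139 of all genes against 22). In PD at 12h 3 were called, 9 with all libraries in one fit, 8 by DESeq2, 6 without the block and 0 with only the times compared (3300, 2560, 1460 and 4 of all genes against 930). Between 12h and 6h in PD, 1 gene (SLC39A7, 0.90, adjusted p = 0.0441) was called with all libraries in one fit (492 of 17884 genes) against 0. Leaving out 1 pig in turn gave 3 to 5 calls in GS at 6h (1318 to 2148 of all genes), 6 to 8 in GS at 12h (2132 to 3533), 0 in PD at 6h (0 to 98), 0 (without pig 3 or 5) to 9 (without pig 2) in PD at 12h (0 to 3826), 8 to 11 at 0h (5574 to 7339), and 0 to 1 (without PD pig 2) for the difference of changes at 12h (0 to 153). For single genes, leaving out a pig left 1115 results on the same side of the threshold, brought 17 past it and took 29 below it, and the other settings gave 1285, 37 and 24. These numbers include the unnamed row in PD, which is described above without a test. Adding the unnamed row to MT1A, an alternative chosen after seeing the data, left the numbers of zinc list genes called during EVLP as they were, gave 10 in place of 9 at 0h, and gave MT1A in GS differences of 4.50 at 6h and 4.07 at 12h.

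PD fits recovered 33.7% of simulated 4-fold changes at 12h, a share that holds only for the simulated setting, with fewer changed genes than were called in the data. A member not called in PD is not shown to be unchanged. Depth, library handling and group cannot be told apart. MT3 (1 to 28 counts in a library) and MT1A at 0h (2 to 13) rest on few counts.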
